A study of Sus scrofa with 12 samples.

Results

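The KCN genes encode the pore-forming and auxiliary subunits of potassium channels, and their transcripts were followed here in the left ventricle of paced and sham-operated pigs. Members were all probe sets whose platform symbol begins with KCN, apart from KCNA5 and KCNIP2, and each gene was read by its probe set with the highest mean over the 12 arrays. This gave 67 genes in 73 probe sets, of 12218 genes listed under a single symbol and 27558 probe sets on the array. Of the 67, 43 lay above the lowest 25% of probe sets by mean and were tested.

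Potassium channels carry the outward currents that end the cardiac action potential and hold the resting potential of the ventricular myocyte. The transient outward current gives the early notch, the delayed rectifiers end the plateau, the inward rectifiers set the resting potential, and tandem-pore channels carry background current. Auxiliary subunits of the KCNE, KCNAB, KCNIP and KCNMB groups alter the gating and surface delivery of the pore subunits, and these currents are known to differ across the ventricular wall and to be remodelled when the activation sequence is altered.

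The paced pigs had complete atrioventricular block, made with an ablation catheter, and a pacemaker in VDD mode, in which ventricular pacing follows sensed atrial beats. The controls were sham-operated. All 12 pigs, 6 per treatment, were females aged 13 months, and tissue was taken 6 months after surgery from the septum and the free wall at the level of the papillary muscles. The labels place the ventricular lead on the right ventricular septum and the atrial lead on the right atrial appendage in every animal. Each of the 4 groups (paced septum, control septum, paced free wall, control free wall) has 3 arrays of total RNA. The labels do not tie arrays to animals, so p-values measure only the spread between these arrays. The array number given below is the number in the label. Values are log2 signals from robust multi-array averaging (RMA), and a difference is given in the same log2 unit, as paced minus control or septum minus free wall. In bulk tissue, fewer cells of a type and less RNA per cell cannot be told apart.

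The tissue carried ventricular muscle transcripts: 7 of 10 cardiomyocyte markers were tested, and their mean log2 signals ran from 10.6 for MYBPC3 to 12.5 for MYH7, the slow myosin heavy chain. Paced free wall array 2 stood apart from the other arrays on the first principal component, at -45.3, and had an estimated array weight of 0.24, the lowest of the 12. It held the highest of the 12 values for 16 of the 43 KCN genes (37.2%), against 19.0% of all tested probe sets. Paced free wall array 1 held the lowest value for 11 of the 43 (25.6%), against 10.9% of all tested probe sets. Both arrays belong to the group that the free wall pacing and paced region comparisons rest on, and counts and medians without each are given beside those results.

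**Figure D1:**
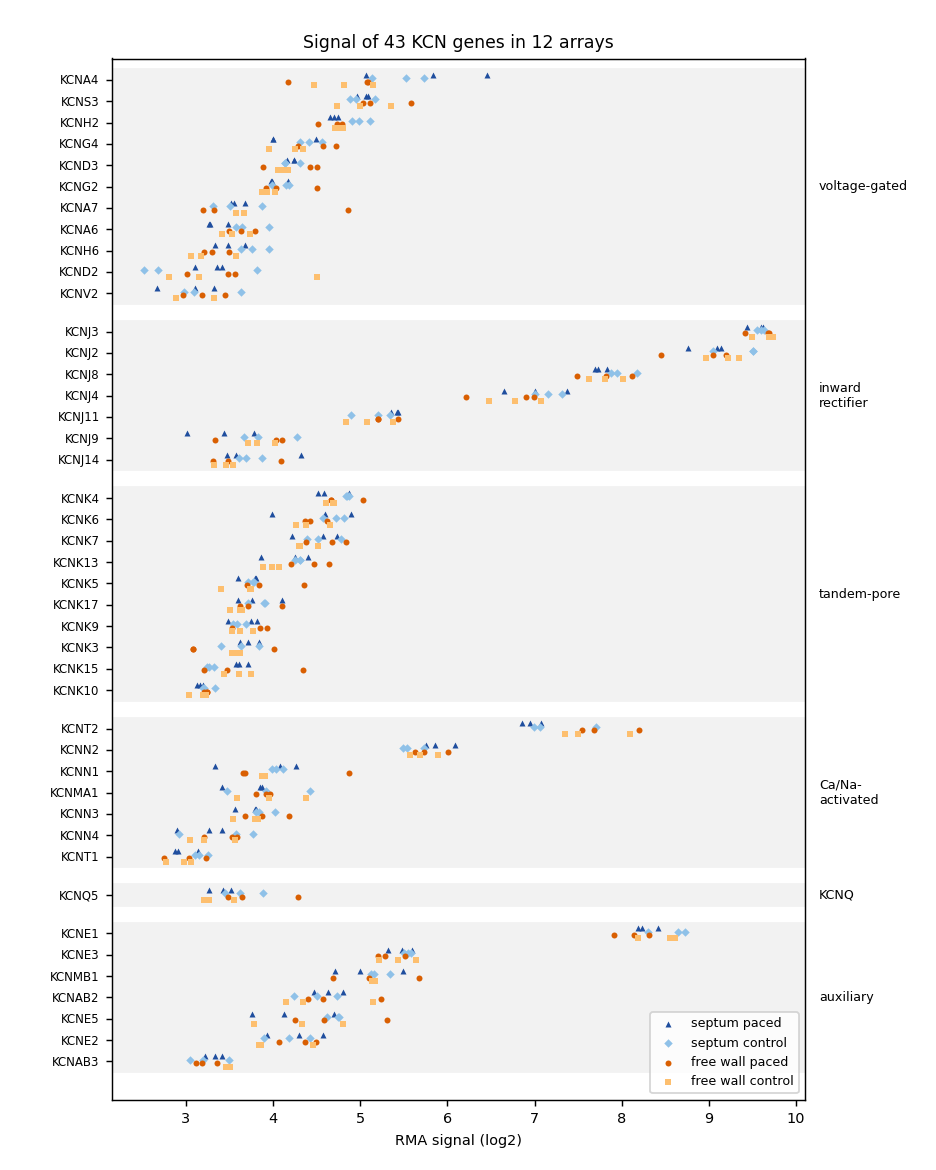
Log2 RMA signal of the 43 tested KCN genes in each of the 12 arrays, grouped by subfamily, with paced and control septum and paced and control free wall drawn in separate colours. KCNJ3, KCNJ2 and KCNE1 lie above 8 in most arrays, while 31 of the 43 genes have a mean under 5.

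Of the voltage-gated subunits, 11 of 22 genes passed the filter. Among the other groups the filter passed 7 of 12 inward rectifier genes, 10 of 11 tandem-pore genes, 7 of 7 calcium- or sodium-activated genes, 1 of 2 KCNQ genes and 7 of 13 auxiliary genes. The 24 genes under the filter had mean log2 signals of 1.28 to 2.93, and the 43 tested had means of 3.02 to 9.60. At the edge of the filter, KCNT1 lay just inside at 3.02 and KCNB2 just outside at 2.93. KCNK1, a tandem-pore background channel, was under the filter at 2.08, and KCNQ3, a subunit of the neuronal M-type channel, at 2.89. KCNQ1, KCNJ5, KCNJ12 and KCNAB1 are not analysed here. A log2 signal depends on the probes as well as on the RNA, so levels of different genes are not ranked as amounts of RNA.

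KCNJ3, a subunit of the acetylcholine-activated channel best known from atrial muscle and the sinus node, read 9.60, 9.44 and 9.62 in paced septum and 9.63, 9.55 and 9.60 in control septum. In the free wall it read 9.41, 9.69 and 9.68 in paced pigs and 9.74, 9.49 and 9.69 in control pigs. All 12 values lay close together, and the groups overlapped in each comparison. The pacing difference was -0.04 in septum (95% interval -0.30 to 0.22) and -0.05 in free wall (-0.30 to 0.21). Log2 signals summed over the 5 atrial markers ran from 33.39 to 34.83 in paced septum, 32.35 to 34.49 in control septum, 30.87 to 34.38 in paced free wall and 29.25 to 36.50 in control free wall.

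Pacing was compared first in the septum, which lies beside the ventricular lead. No KCN gene passed the test there: limma called 0 of 43 at an adjusted p under 0.05, against 0.00968% of all probe sets tested, and the smallest adjusted p of a KCN gene was 0.992. An unadjusted p under 0.05 was reached by 3 of 43, KCNH2 and KCNA6 with lower means in paced pigs and KCNN2 with a higher mean, against 4.66% of all probe sets. The median difference was -0.12, with 14 genes above 0 and 29 below. Without paced septum array 1, 21 were above 0 and 22 below, with a median of -0.01, and without paced septum array 3, 11 were above and 32 below, with a median of -0.20. The median was -0.08 without paced septum array 2, -0.07 without control septum array 1 and -0.06 without control septum array 3. Over all tested probe sets the median lay between -0.0033 and 0.0133 in the 7 comparisons given here, with 48.9% to 53.3% above 0. By subfamily, 6 of 7 calcium- or sodium-activated genes were below 0 (median -0.20), 5 of 7 inward rectifiers (median -0.15), 7 of 10 tandem-pore genes (median -0.04), 6 of 11 voltage-gated genes (median -0.06) and 4 of 7 auxiliary genes (median -0.08). Without paced septum array 1, 3 of the 10 tandem-pore genes were below 0 (median 0.04), 3 of the 7 auxiliary genes (median 0.04), 4 of the 7 inward rectifiers (median -0.06) and 5 of the 7 calcium- or sodium-activated genes (median -0.09). Paced and control arrays did not overlap for 6 of 43, against 10.5% of all probe sets.

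KCNH2, the pore of the rapid delayed rectifier, read 4.66, 4.75 and 4.70 in paced septum and 5.11, 4.91 and 4.99 in control septum. The 3 paced values lay below the 3 control values, with a difference of -0.30 (SE 0.11, adjusted p = 0.992). In the free wall the values overlapped, at 4.79, 4.73 and 4.52 in paced pigs and 4.73, 4.80 and 4.71 in control pigs, with a difference of -0.07 (95% interval -0.30 to 0.17). The difference between these pacing effects was -0.23 (SE 0.15, adjusted p = 0.999). KCNA6, a Shaker-type delayed rectifier subunit, read 3.27, 3.28 and 3.49 in paced septum and 3.65, 3.95 and 3.58 in control septum. No paced value reached a control value, and the difference was -0.38 (SE 0.14, adjusted p = 0.992).

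KCNN2, a small-conductance channel opened by calcium, read 6.09, 5.76 and 5.86 in paced septum and 5.49, 5.73 and 5.54 in control septum. The lowest paced value lay just above the highest control value, and the difference was 0.32 (SE 0.14, adjusted p = 0.992). KCNN3, of the same group, averaged 3.72 ± 0.14 in paced septum and 3.89 ± 0.11 in control septum (SD, n = 3 each). KCNMA1, the large-conductance calcium-activated channel, averaged 3.72 ± 0.26 in paced septum and 3.94 ± 0.48 in control septum (SD, n = 3 each), and its smooth muscle beta subunit KCNMB1 averaged 5.07 ± 0.39 in paced septum and 5.21 ± 0.11 in control septum. KCNN1, the remaining small-conductance subunit, averaged 3.89 ± 0.49 in paced septum and 4.05 ± 0.07 in control septum. For these 4 genes the paced and control arrays overlapped.

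KCNJ8 and KCNJ11 form pores of ATP-sensitive channels, the first mainly known from vascular muscle and pericytes and the second from ventricular myocytes. KCNJ8 read 7.69, 7.83 and 7.73 in paced septum and 7.95, 8.18 and 7.88 in control septum. KCNJ11 read 5.44, 5.36 and 5.42 in paced septum and 5.34, 4.90 and 5.20 in control septum. Neither gene's groups overlapped, with the paced arrays below the control arrays for KCNJ8 and above them for KCNJ11, and the differences were -0.25 (95% interval -0.61 to 0.10) and 0.26 (-0.08 to 0.60). Both genes overlapped in the free wall, where KCNJ8 had a difference of -0.01 and KCNJ11 of 0.18. Log2 signals summed over 7 smooth muscle and pericyte markers ran from 42.82 to 45.84 in paced septum and 40.43 to 43.34 in control septum, and 5 of the 7 markers had a positive pacing difference there. Their part in the KCNJ8 value was not tested. KCNK15, an acid-sensitive tandem-pore relative, was the remaining gene without overlap, with 3.61, 3.58 and 3.72 in paced septum and 3.27, 3.33 and 3.25 in control septum (difference 0.35, SE 0.23). The mechanosensitive KCNK4 averaged 4.66 ± 0.19 in paced septum and 4.85 ± 0.02 in control septum. KCNK6 averaged 4.50 ± 0.46 in paced septum and 4.70 ± 0.13 in control septum. KCNK7 averaged 4.51 ± 0.27 in paced septum and 4.56 ± 0.20 in control septum (SD, n = 3 each). Paced and control arrays of these 3 tandem-pore genes overlapped.

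The transient outward pore genes were also read in both regions. KCND3 averaged 4.21 ± 0.05 in paced septum and 4.20 ± 0.10 in control septum, and 4.27 ± 0.34 in paced free wall and 4.12 ± 0.06 in control free wall (SD, n = 3 each). The 95% intervals of its pacing difference were -0.31 to 0.34 in septum and -0.17 to 0.48 in free wall. KCND2 read 3.11, 3.42 and 3.36 in paced septum and 2.68, 3.82 and 2.52 in control septum, and 3.01, 3.49 and 3.57 in paced free wall and 3.15, 4.51 and 2.81 in control free wall. The 2 highest KCND2 values of the 12 were those of the control arrays numbered 2, and the intervals were the widest of the family, at -0.61 to 1.19 in septum and -1.04 to 0.77 in free wall. KCNIP2, the beta subunit of these pores, is outside the members chosen. It read 8.28, 8.38 and 8.16 in paced septum and 8.52, 8.66 and 8.63 in control septum, and 8.19, 8.02 and 8.08 in paced free wall and 8.39, 8.63 and 8.56 in control free wall. Every paced value lay below every control value of its region, and the free wall difference was -0.43 (SE 0.11, adjusted p = 0.866). KCNS3, a silent subunit that alters Kv pores, averaged 5.04 ± 0.06 in paced septum and 5.0 ± 0.15 in control septum (SD, n = 3 each).

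In the free wall, away from the ventricular lead, limma also called 0 of 43 KCN genes, against 0.00484% of all probe sets, with a smallest adjusted p of 0.998. At an unadjusted p under 0.05 there were 2 of 43, KCNK13 and KCNQ5, both with higher means in paced pigs, against 4.56% of all probe sets in either direction and 1.96% with higher means. The differences of the 43 genes had a median of 0.08, with 30 above 0 and 13 below. Without paced free wall array 2, 21 were above 0 and 22 below, with a median of -0.02. Without paced free wall array 1, 35 were above 0 and 8 below, with a median of 0.23. Without control free wall array 1 the median was 0.12, with 31 above 0 and 12 below. By subfamily, 6 of 7 calcium- or sodium-activated genes were above 0 (median 0.16) and 8 of 11 voltage-gated genes (median 0.08). So were 4 of 7 auxiliary genes (median 0.01) and 2 of 7 inward rectifiers (median -0.02). Without paced free wall array 2, these 4 groups had 4 of 7, 5 of 11, 3 of 7 and 1 of 7 above 0. Their medians were then 0.06, -0.02, -0.18 and -0.125. Log2 signals summed over 6 macrophage and monocyte markers ran from 27.56 to 29.88 in paced free wall and 31.15 to 32.19 in control free wall, with 0 of 6 pacing differences above 0. Those of 7 smooth muscle and pericyte markers ran from 42.65 to 44.51 in paced free wall and 40.90 to 43.37 in control free wall, with 7 of 7 above 0. Their part in the KCN values was not tested.

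KCNK13, a tandem-pore channel inhibited by halothane, read 3.86, 4.25 and 4.40 in paced septum and 4.25, 4.31 and 4.31 in control septum, with overlap. Free wall values were 4.47, 4.64 and 4.21 in paced pigs and 3.89, 4.07 and 3.99 in control pigs. All 3 paced free wall arrays were above all 3 control arrays, with a difference of 0.46 (SE 0.15, adjusted p = 0.998), or 0.36 without paced array 2. KCNQ5, a subunit of M-type channels in neurons and vascular muscle, read 3.65, 4.29 and 3.49 in paced free wall and 3.55, 3.21 and 3.27 in control free wall. The groups overlapped, and the highest value was that of array 2. Its difference was 0.47 (SE 0.20, adjusted p = 0.998), and it was 0.23 without array 2. A second KCNQ5 probe set gave -0.15. Of the 10 tandem-pore genes, 9 had positive free wall differences, and the median of the 10 was 0.13. Without array 2, 7 of the 10 were positive, with a median of 0.08. KCNK3, an acid-sensitive background channel, was the exception at -0.18 (95% interval -0.65 to 0.29), or -0.49 without array 2. It read 3.08, 4.01 and 3.08 in paced free wall and 3.56, 3.62 and 3.53 in control free wall, so array 2 was the highest of these 6 and the other paced arrays the lowest.

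KCNAB3, a beta subunit of Shaker-type channels, was the other gene without overlap in the free wall. It read 3.19, 3.36 and 3.12 in paced pigs and 3.51, 3.46 and 3.47 in control pigs, all paced values being below all control values, with a difference of -0.26 (SE 0.13, adjusted p = 0.998). KCNAB2, of the same group, averaged 4.74 ± 0.44 in paced free wall and 4.55 ± 0.53 in control free wall (SD, n = 3 each), with overlap. Non-overlap was thus seen for 2 of 43 KCN genes, against 8.16% of all probe sets.

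**Figure D2:**
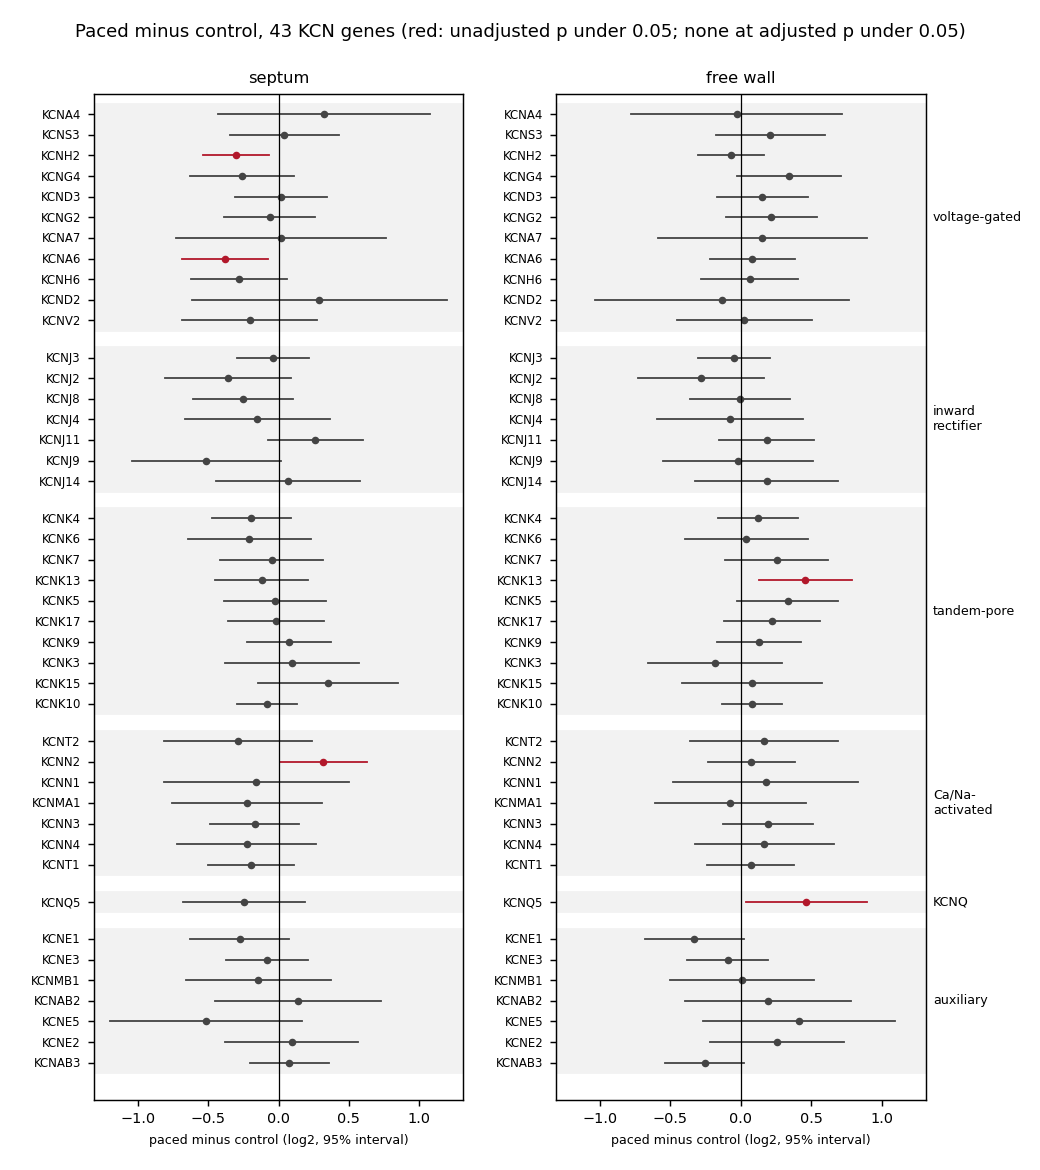
Paced minus control log2 difference with its 95% interval for the 43 tested KCN genes, in septum and in free wall, ordered by subfamily. Genes at an unadjusted p under 0.05 are red: KCNH2, KCNA6 and KCNN2 in septum and KCNK13 and KCNQ5 in free wall, and the other intervals cross 0.

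With septum and free wall arrays of the same treatment and number averaged first, limma called 0 of 43 KCN genes for pacing, against 0.00484% of all probe sets, with a smallest adjusted p of 0.888. An unadjusted p under 0.05 was reached by KCNE1 and KCNJ2, both with lower means in paced pigs (2 of 43, against 5.55% of all probe sets in either direction and 2.96% with lower means). Of the 43 differences, 21 were above 0 and 22 below, and their median was 0.00. Only KCNH2 had all averaged paced values below all averaged control values, 1 of 43 against 10.5% of all probe sets.

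KCNJ2, the main pore of the inward rectifier current, read 9.14, 8.76 and 9.09 in paced septum and 9.51, 9.51 and 9.05 in control septum. In the free wall it read 8.45, 9.19 and 9.05 in paced pigs and 9.35, 9.22 and 8.97 in control pigs. In each region the control array numbered 3 lay among the paced arrays, so the groups overlapped. The difference was -0.36 in septum and -0.28 in free wall, and -0.32 averaged (95% interval -0.63 to -0.01, adjusted p = 0.890). The free wall difference was -0.06 without paced free wall array 1 and -0.43 without paced free wall array 2. Over 15 settings of processing and array omission, the averaged difference ran from -0.45 to -0.24. Its unadjusted limma p was under 0.05 in 8 of the 15. KCNJ4, another inward rectifier pore, averaged 7.01 ± 0.36 in paced septum and 7.16 ± 0.16 in control septum, with -0.15 (95% interval -0.67 to 0.37), and -0.08 (-0.59 to 0.44) in free wall.

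KCNE1, the beta subunit that joins KCNQ1 in the slow delayed rectifier, read 8.42, 8.19 and 8.23 in paced septum and 8.73, 8.64 and 8.30 in control septum. In the free wall it read 7.91, 8.31 and 8.14 in paced pigs and 8.55, 8.61 and 8.19 in control pigs. As for KCNJ2, the control arrays numbered 3 were the lowest of their groups and overlapped the paced arrays. The difference was -0.28 in septum, -0.33 in free wall and -0.30 averaged (95% interval -0.59 to -0.02, adjusted p = 0.888). KCNE3, another KCNE subunit, had -0.08 in septum and -0.09 in free wall, with 95% half-widths of 0.29. KCNE2, which modulates KCNH2 and other pores, averaged 4.27 ± 0.32 in paced septum and 4.17 ± 0.27 in control septum, and 4.31 ± 0.22 in paced free wall and 4.05 ± 0.35 in control free wall (SD, n = 3 each).

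**Figure D3:**
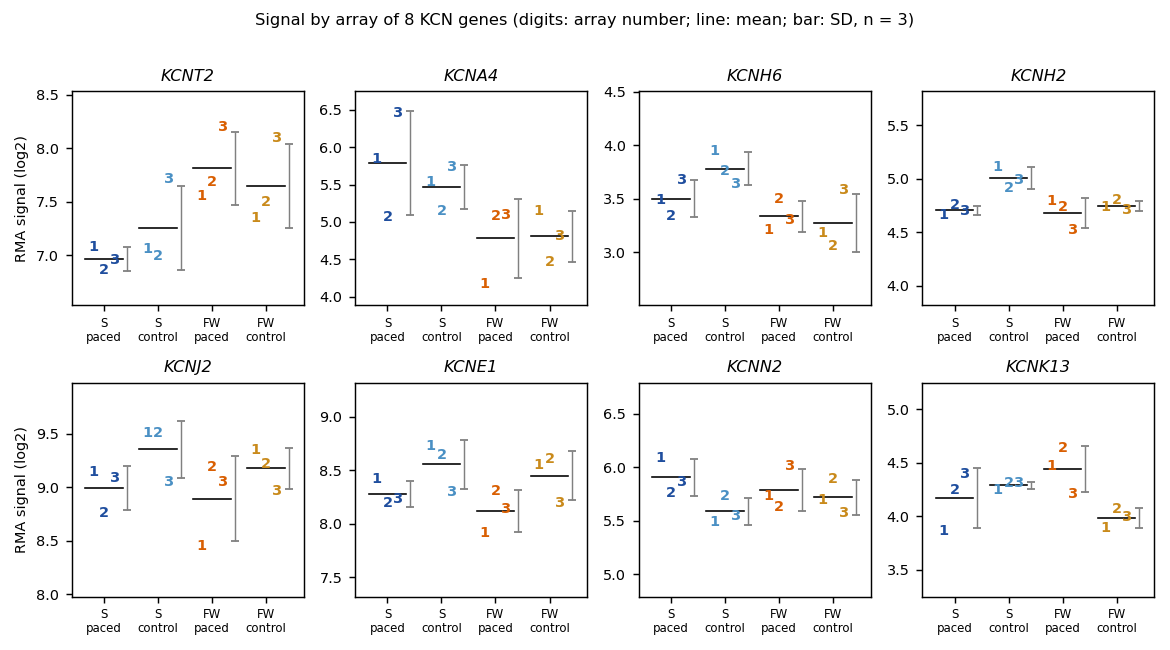
Log2 RMA signal by array for KCNT2, KCNA4, KCNH6, KCNH2, KCNJ2, KCNE1, KCNN2 and KCNK13, with each point drawn as its array number, a line at the group mean and a bar for the SD (n = 3), from paced septum on the left to control free wall on the right. KCNH2 in control septum (4.91 to 5.11) lies above every other KCNH2 value, and KCNT2 in paced septum (6.86 to 7.08) lies below every free wall value.

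Whether pacing differed between the regions was tested directly, as the septal pacing difference minus that of the free wall. Limma called 0 of 43 KCN genes, against 0% of all probe sets, with a smallest adjusted p of 0.999. An unadjusted p under 0.05 was reached by 4 of 43, all with a more negative value in septum, against 2.75% of all probe sets in either direction and 1.32% with more negative values. These were KCNQ5 at -0.71 (SE 0.28), KCNG4 at -0.60 (SE 0.24), KCNK13 at -0.58 (SE 0.21) and KCNA6 at -0.46 (SE 0.19). As the mean of its probe sets, KCNQ5 had -0.235. Of the 43 values, 33 were below 0 and 10 above, with a median of -0.17, and without paced free wall array 2 there were 26 below and 16 above, with a median of -0.10. Without paced free wall array 1 there were 35 below and 8 above, with a median of -0.29, and without paced free wall array 3 the median was -0.26. Without paced free wall array 2, KCNQ5 had -0.47, KCNG4 -0.51, KCNK13 -0.48 and KCNA6 -0.39. The single direction did not hold without that array: 5 of 43 then reached an unadjusted limma p under 0.05, 3 of them with positive values. With array weights there were 8 of 43, 3 of them positive.

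KCNG4, a silent subunit that modifies Kv channels, showed the pattern in its values: 4.0, 4.0 and 4.50 in paced septum and 4.56, 4.31 and 4.41 in control septum, against 4.29, 4.72 and 4.57 in paced free wall and 4.25, 3.96 and 4.34 in control free wall. The mean was below control in the paced septum and above control in the paced free wall, with overlap in both. KCNE5, another KCNE subunit, had the most negative value of the family at -0.93 (95% interval -1.89 to 0.04). It read 3.76, 4.13 and 4.70 in paced septum and 4.76, 4.75 and 4.62 in control septum. In the free wall it read 4.25, 5.31 and 4.59 in paced pigs and 4.80, 4.33 and 3.78 in control pigs. Its groups overlapped in both regions, and its free wall pacing difference of 0.41 was 0.12 without paced array 2.

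The regions were then compared within each treatment. In paced pigs limma called 0 of 43 KCN genes between septum and free wall, against 0% of all probe sets, and the smallest adjusted p was 0.496. An unadjusted p under 0.05 was reached by KCNT2, lower in septum, and KCNA4, higher in septum (2 of 43, against 6.73% of all probe sets). The median difference was -0.07, with 14 genes above 0 and 29 below. Without paced free wall array 2, 25 were above 0 and 18 below, with a median of 0.03, and without paced free wall array 1, 12 were above and 31 below, with a median of -0.19. The median was -0.03 without paced septum array 1 and -0.12 without paced septum array 3. Septum and free wall did not overlap for KCNT2, KCNA6 and KCNK10, all lower in septum (3 of 43, against 9.91% of all probe sets in either direction and 3.47% lower in septum).

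KCNT2, a channel opened by intracellular sodium, read 7.08, 6.86 and 6.95 in paced septum and 7.55, 7.68 and 8.20 in paced free wall. In control pigs it read 7.06, 6.99 and 7.71 in septum and 7.35, 7.50 and 8.09 in free wall. All paced septum values lay below all paced free wall values. The control groups overlapped, but within each of the 3 control numbers the septal value was the lower one, with differences of -0.51 to -0.29. The septum minus free wall difference was -0.85 in paced pigs (SE 0.24, adjusted p = 0.496), -0.39 in control pigs (SE 0.24, adjusted p = 0.997) and -0.62 with treatments averaged (SE 0.17, adjusted p = 0.381). Its pacing effect differed between regions by -0.45 (95% interval -1.20 to 0.29).

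KCNA4, the pore of a slowly recovering transient outward current, read 5.84, 5.07 and 6.46 in paced septum and 4.17, 5.08 and 5.09 in paced free wall. In control pigs it read 5.53, 5.14 and 5.73 in septum and 5.15, 4.47 and 4.81 in free wall. Paced septum array 2 lay among the free wall values, and the lowest control septum value was just under the highest control free wall value, so both comparisons overlapped. The difference was 1.01 in paced pigs (SE 0.34, adjusted p = 0.598), 0.66 in control pigs (SE 0.34, adjusted p = 0.997) and 0.83 with treatments averaged (SE 0.24, adjusted p = 0.410). In paced pigs it was 0.68 without septum array 3 and 1.37 without septum array 2.

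KCNA5, which the choice of members leaves out, carries the ultrarapid delayed rectifier and read 7.15, 6.73 and 6.79 in paced septum, 6.10, 6.02 and 5.87 in control septum, 5.57, 4.93 and 5.76 in paced free wall and 5.58, 5.48 and 5.18 in control free wall. Its septal values lay above its free wall values in both treatments, with a region difference averaged over treatments of 1.03 (SE 0.14, adjusted p = 0.0717).

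**Figure D4:**
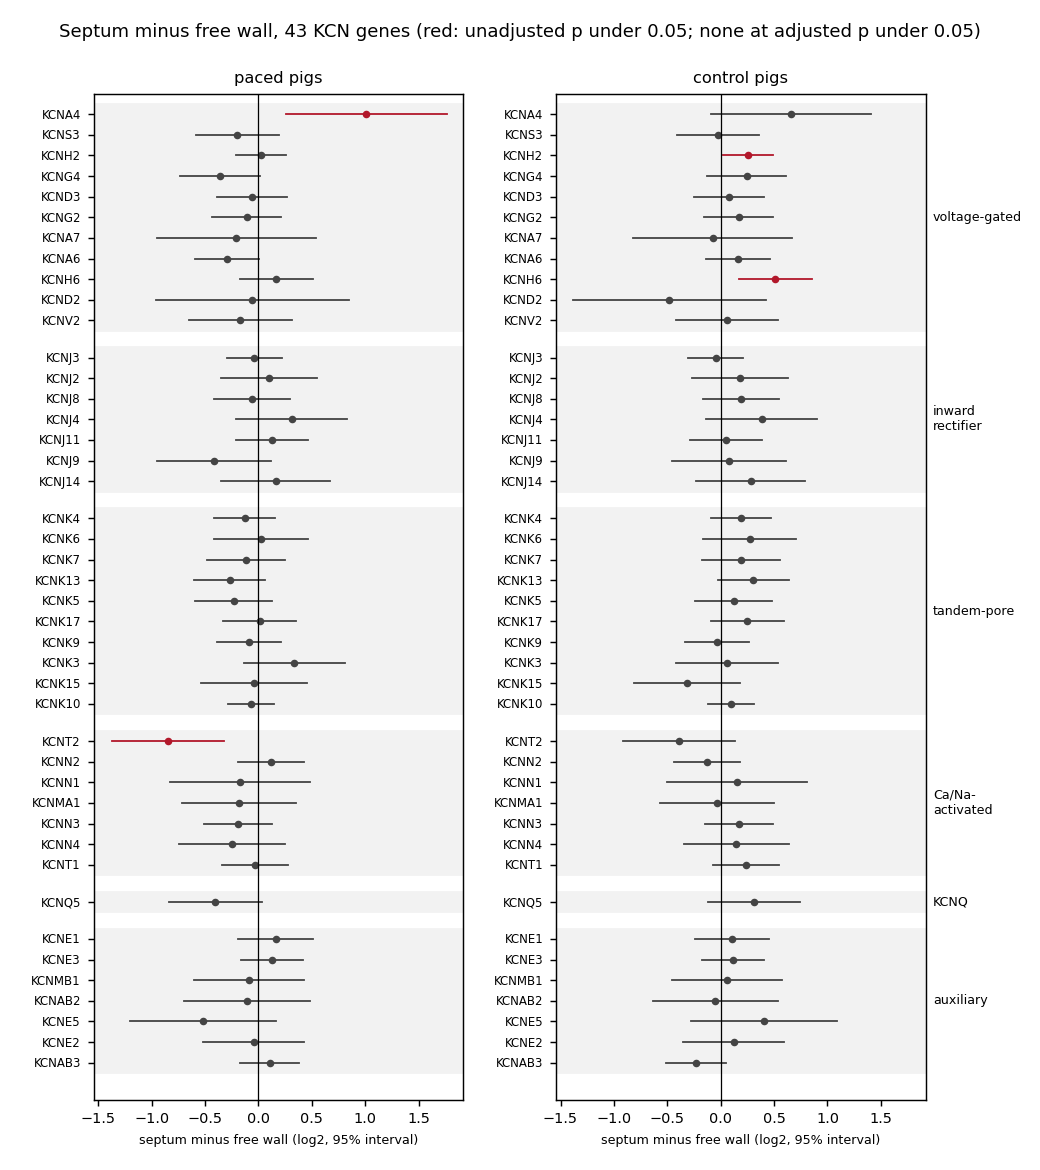
Septum minus free wall log2 difference with its 95% interval for the 43 tested KCN genes, in paced pigs and in control pigs, ordered by subfamily. KCNT2 and KCNA4 in paced pigs and KCNH2 and KCNH6 in control pigs are red (unadjusted p under 0.05), and 29 of 43 differences lie below 0 in paced pigs against 11 of 43 in control pigs.

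In control pigs limma called 0 of 43 KCN genes between the regions, against 0% of all probe sets, with a smallest adjusted p of 0.997. KCNH6 and KCNH2 reached an unadjusted p under 0.05, both higher in septum (2 of 43, against 3.67% of all probe sets in either direction and 2.12% higher in septum). The median difference was 0.12, with 32 genes above 0 and 11 below, and in each subfamily with more than 1 tested gene the median was above 0, from 0.11 for the auxiliary subunits to 0.18 for the inward rectifiers. Of the calcium- or sodium-activated genes 4 of 7 were above 0, and without control septum array 3 there were 3, with a median of -0.02. Without control free wall array 3 the auxiliary median was 0.01. The other subfamily medians without 1 array were above 0. Septum and free wall did not overlap for 9 of 43, against 13.1% of all probe sets. Without overlap and higher in septum were 8 of 43 (18.6%), against 7.33% of all probe sets. These 8 were KCNT1, KCNH6, KCNH2, KCNN1, KCNK4, KCNJ14, KCNK13 and KCNK17, all with means under 5. The 7.33% covers all levels of signal and was not taken within that range. KCNT1 averaged 3.17 in control septum, 2.94 in control free wall, 2.98 in paced septum and 3.01 in paced free wall. Its place among the tested genes therefore leaned on the control septum arrays, which this comparison uses. The contrast between the counts in control pigs and those in paced pigs is the difference in pacing effect tested above, for which 0 of 43 genes were called.

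KCNH6, a relative of KCNH2 in the ether-a-go-go group, read 3.95, 3.76 and 3.64 in control septum and 3.18, 3.06 and 3.58 in control free wall. The septal values lay above all free wall values, with a difference of 0.51 (SE 0.16, adjusted p = 0.997). In paced pigs it read 3.49, 3.34 and 3.68 in septum and 3.21, 3.50 and 3.30 in free wall, and the regions overlapped (difference 0.17, 95% interval -0.18 to 0.51). KCNH2, given above by array, had a control difference of 0.26 (SE 0.11, adjusted p = 0.997) and a paced difference of 0.02 (95% interval -0.21 to 0.26). Its septal pacing difference and its control region difference share the control septum arrays, which hold the 3 highest KCNH2 values of the 12.

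The control numbers were read as pairs, and with the number as a block limma again called 0 KCN genes between the regions in control pigs. With the block, KCNH6 had an unadjusted p of 0.0218 and KCNH2 had 0.0669, while KCNT2 had 0.0398 and KCND2 0.00593 (adjusted p = 0.988 for each). KCND2 was lower in septum within each control number, with septum minus free wall differences of -0.47, -0.69 and -0.29 and a mean of -0.48, although the groups as wholes overlapped.

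With both treatments averaged, limma called 0 of 43 for region, against 0.00968% of all probe sets, and the smallest adjusted p was that of KCNT2. Of the 43 differences, 21 were above 0 and 22 below, and without paced free wall array 2, 29 were above 0 and 14 below. Without paced free wall array 1, 17 were above 0 and 26 below. KCNT2, KCNA4 and KCNH6 reached an unadjusted p under 0.05 (3 of 43, against 7.83% of all probe sets), KCNH6 with a difference of 0.34 (SE 0.11, adjusted p = 0.488). No gene's 6 septal values were free of overlap with its 6 free wall values, 0 of 43 against 0.668% of all probe sets. KCNJ4 had 0.31 in paced and 0.38 in control pigs, and 0.35 averaged (95% interval -0.02 to 0.71). The median 95% half-width of a difference between groups of 3 was 0.37 over the 43 genes, and the half-widths ran from 0.21 to 0.90.

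**Figure D5:**
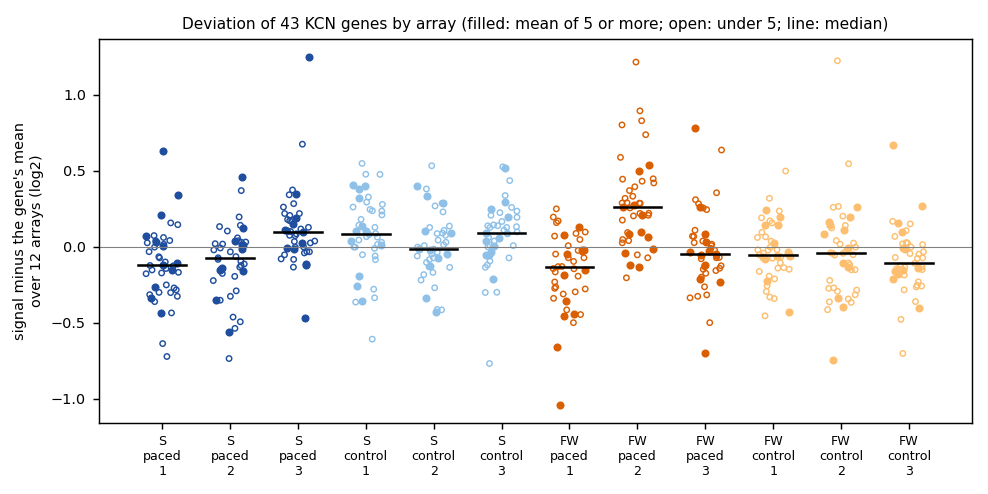
Deviation of the 43 tested KCN genes from their own mean over the 12 arrays, by array, in log2 units, with the groups from paced septum to control free wall and the median of each array as a line; filled points are genes with a mean of 5 or more, open points the others. The median is highest in paced free wall array 2, at 0.26, and lowest in paced free wall array 1, at -0.13.

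In both ranges of signal, array 2 of the paced free wall held the highest value for a larger share of KCN genes than of all probe sets. Of the 31 KCN genes with a mean under 5 it was the highest array for 13 (41.9%, against 28.9% of all probe sets in that range), and of the 12 genes with a mean of 5 or more for 3 (25%, against 9.29%). Among the 12, 5 had a positive free wall pacing difference (median -0.02), and among the 31, 25 did (median 0.15). Over all tested probe sets 49.9% were above 0, but this share was not taken within each range of signal. The counts by range therefore cannot be set apart from a trait of probe sets with low signal. Without array 2, 21 of the 43 genes were above 0, not split by range. The part of this array's signal in the free wall values was not tested beyond leaving it out.

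A further list held 36 genes whose products anchor, oppose or regulate the potassium currents. Of these, 18 were matched on the array, 17 were tested and limma called 0 in each of the 7 comparisons. Pacing differences were above 0 for 4 of 17 in septum and 12 of 17 in free wall, with medians of -0.09 and 0.09, and region differences for 7 of 17 in paced and 14 of 17 in control pigs. AKAP9, which anchors protein kinase A at the slow delayed rectifier, had 0.26 in septum, with all paced values above all control values, and 0.24 in free wall (averaged 0.25, SE 0.08, adjusted p = 0.867). HCN3, a pacemaker channel subunit, had a pacing difference of -0.39 in septum and 0.54 in free wall (0.32 without paced array 2), so that the regions differed by -0.93 (SE 0.27, adjusted p = 0.999). IRX4, a ventricular transcription factor, had -0.41 (SE 0.17, adjusted p = 0.992) in septum, or -0.26 without control array 3. CACNA1C, the pore of the L-type calcium channel, was higher in septum without overlap in both treatments, by 0.29 in paced and 0.30 in control pigs (averaged 0.29, SE 0.08, adjusted p = 0.404). The paced value was 0.19 without free wall array 2.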

How the data were processed

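Per the labels, Trizol-extracted total RNA was labelled with biotin for single-colour arrays. The authors deposited log2 values, for which the submitters' processing notes name RMA and Affymetrix Expression Console 1.4. RMA subtracts background, forces the probe signals of the arrays to a common distribution and combines the probes of each set. This can compress differences at low signal. The medians of the deposited values still ran from 4.305 in paced free wall array 1 to 4.45 in paced free wall array 2. The array's genome build is not given in the sources used here. Arrays have no count depth, so their number (3 per group) limits the precision.

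The linear model was limma 3.58.1 under R 4.3.3 (lmFit and eBayes, 1 mean per group, 12 arrays, 8 residual and 3.68 prior degrees of freedom), two-sided, with Benjamini-Hochberg adjustment over 20669 probe sets and a call at an adjusted p under 0.05. Probe sets in the lowest 25% by mean (under 3.00) were left out. For pacing with regions averaged, each numbered septum array was first averaged with its free wall counterpart. The code of the fit was run on simulated data with independent normal noise. These had no outlying array and no shared animals, so the run does not bear on such features of the deposited data. A platform table gave gene symbols. KCNK17 is listed by RefSeq under its gene ID as KCNK16. Figures used matplotlib 3.10.9 and tables pandas 2.3.3.

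The members and lists were chosen with earlier results of these data known. Genes were named where called, at an unadjusted p under 0.05, among the 3 highest means of a subfamily, or in a fixed set of cardiac channel genes. KCNK15, KCNE5, KCNAB3, KCNK10, KCNJ14, KCNK17, KCNT1 and KCNB2 lie outside that rule and were chosen after their values were seen.

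As a check of pairing, deviations from the group mean were correlated between septum and free wall arrays with one number, over all tested probe sets. The values were 0.09, -0.17 and -0.18 for paced and 0.32, 0.25 and 0.24 for control numbers. Between arrays of unlike numbers they ran from -0.488 to 0.475 in paced pigs and from -0.229 to -0.027 in control pigs. Paced septum arrays 1, 2 and 3 had their highest values with paced free wall arrays 3, 1 and 2, at 0.414, 0.416 and 0.475. The numbers come from the sample titles, and only for control pigs did every same-number value lie above every unlike-number value. Deviations from a mean of 3 arrays sum to 0, so higher same-number values go with lower unlike-number ones. With the number as a random block, paced and control numbers together, the estimated correlation was 0.031. Whether the numbers mark animals is not given by the labels. Averaging by number for pacing uses the paced numbers too, where it joins arrays not shown to be paired.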

Additional observations from a re-analysis of the deposited data

How the results depend on the processing

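Limma called 0 KCN genes in each of the 7 comparisons under every alternative run: no low-signal filter, the lowest 50% left out, arrays re-centred, quantile normalisation repeated, array weights, trend and robust moderation, the mean of all probe sets of a gene, only the groups compared, the replicate number as a block, and each array left out. The median of the 43 differences for pacing in free wall was 0.23 without paced array 1, and that for pacing averaged was 0.13 without the paced arrays numbered 1. Over all such omissions the medians ran from -0.0183 to 0.23 for pacing in free wall, -0.20 to -0.01 in septum, -0.0392 to 0.13 averaged, and -0.29 to -0.10 for the difference between regions. For region they ran from -0.19 to 0.03 in paced pigs, 0.11 to 0.17 in control pigs and -0.03 to 0.08 averaged. The cause was not tested. Over the whole table, calls ranged from 0 to 2 for pacing in free wall (1 as reported), 1 to 4 in septum (2), 0 to 4 averaged (1), 0 to 7 for region in paced pigs (0) and 0 to 4 averaged (2).

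With the replicate block, the smallest adjusted p of a KCN gene was 0.374, and with the number as a random block 0.334, and neither changed a KCN call. For pacing, the replicate block joined paced and control arrays of the same number, which come from different pigs. For region, both blocks also joined the paced numbers, which were not shown to be pairs. A fit on only the groups compared gives no separate value for the averaged comparisons or the difference between regions. Values without 1 array by subfamily and for the genes that regulate the currents were added after seeing the data. KCNQ5 had a free wall pacing difference of 0.16 as the mean of its probe sets. With 3 arrays per group, 95% half-widths ran from 0.21 to 0.90 by gene, before adjustment.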

Other observations

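Septum and free wall arrays of the same number deviated together over the KCN genes in control pigs. The correlations of the deviations from the group means were 0.51, 0.80 and 0.52 over 43 genes for numbers 1, 2 and 3, and 0.45, 0.68 and 0.39 without KCND2. In paced pigs they were -0.10, 0.05 and -0.17. These are descriptions across genes of pairs of arrays, and genes are not independent replicates. KCNMA1 was high in both control arrays numbered 1, at 4.43 in septum and 4.38 in free wall, and KCND2 in both numbered 2, at 3.82 in septum and 4.51 in free wall.

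Several probe sets were listed for KCNAB3, KCNK4, KCNK5, KCNN4, KCNQ5 and KCNS2. The pairs for KCNAB3 and KCNS2 held identical values. The 2 tested KCNQ5 probe sets differed in sign for pacing, with -0.25 for the one used and 0.10 for the other in septum, and 0.47 for the one used and -0.15 for the other in free wall.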
